A study of Saccharomyces cerevisiae and Schizosaccharomyces pombe with 10 samples.

Results

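Fission yeast genes that carry several introns and do not encode cytoplasmic ribosomal proteins were examined for how far their introns had been removed from nascent RNA, the RNA still held by transcribing polymerases. Members were all protein-coding genes of chromosomes I to III with at least 2 annotated introns, leaving out symbols made of rpl, rps or rpp and a number. This rule, which used no measured value, took 1332 of 5113 protein-coding genes, with 4064 introns. The gene cpc2, annotated as the ribosomal protein RACK1, is a member because its symbol is not of that form.

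The material was 1 sample of Schizosaccharomyces pombe strain L972, a wild-type h- strain kept in rich glucose medium at 30 °C and collected while growing exponentially. Its nascent RNA had a DNA adaptor joined to the 3' ends, was copied into cDNA, lightly amplified and read as single molecules on a Pacific Biosciences sequencer. The series also holds budding yeast samples, which were not used here. With 1 sample there was no spread between replicates, so no p-value was computed, and the intervals in brackets are 95% Wilson intervals for shares and Newcombe intervals for differences, which cover counting error only.

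An intron is recognised by its 5' splice site, a branch site further down and the 3' splice site, and it can be cut out once polymerase has copied all of these. Removal may take place while the RNA is still attached to polymerase, in which case a molecule whose 3' end lies within the gene has already lost an intron. In a gene with several introns each removal joins neighbouring exons, and internal exons are bounded by a splice site on either side. Introns of fission yeast are short and numerous, and a single long read can cross several of them.

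Of the members, 643 had 2 introns, 354 had 3 and 335 had 4 or more, up to 15. Their introns had a median length of 54 nt, with 39 nt at the 5th and 197 nt at the 95th percentile. The 2734 internal exons had a median length of 138 nt, and 34.6% of them were at most 100 nt long. The introns that the molecules below turn on are printed here from the RefSeq genome, build ASM294v3, 5' to 3'. Capitals mark the first 6 bases, the branch motif nearest the 3' end, and the last 3 bases. The branch motif was searched on the transcribed strand as CTAAC, with the variant CTGAC, the variant CTAAT and the variant CTGAT. The first set holds the introns with the most informative reads, and the gene name is followed by the intron number.
cpc2 intron 1, chrI:2439658-2439854, plus strand: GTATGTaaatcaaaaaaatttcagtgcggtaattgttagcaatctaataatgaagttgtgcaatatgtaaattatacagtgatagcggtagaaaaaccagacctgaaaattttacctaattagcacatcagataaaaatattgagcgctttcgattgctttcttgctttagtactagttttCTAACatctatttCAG
cct6 intron 1, chrII:942999-943043, plus strand: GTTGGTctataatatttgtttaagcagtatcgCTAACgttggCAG
nda3 intron 1, chrII:3965877-3965912, minus strand: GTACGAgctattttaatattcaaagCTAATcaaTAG

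The second set holds introns that were seen unspliced in every read of rar1 and sce3, and the first 5 introns of rpb1, which 1 molecule crossed together. It was chosen after the values were seen.
rar1 intron 1, chrII:1409700-1409765, minus strand: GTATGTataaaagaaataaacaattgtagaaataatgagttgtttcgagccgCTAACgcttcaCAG
sce3 intron 1, chrII:1776857-1776893, minus strand: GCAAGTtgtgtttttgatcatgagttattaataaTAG
sce3 intron 2, chrII:1776805-1776845, minus strand: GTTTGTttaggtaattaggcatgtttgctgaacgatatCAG
rpb1 intron 1, chrII:1591169-1591203, plus strand: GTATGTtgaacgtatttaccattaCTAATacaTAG
rpb1 intron 2, chrII:1591230-1591269, plus strand: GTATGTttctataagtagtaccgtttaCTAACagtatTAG
rpb1 intron 3, chrII:1591343-1591381, plus strand: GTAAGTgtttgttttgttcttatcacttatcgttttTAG
rpb1 intron 4, chrII:1591458-1591502, plus strand: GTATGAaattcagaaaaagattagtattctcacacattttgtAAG
rpb1 intron 5, chrII:1591563-1591654, plus strand: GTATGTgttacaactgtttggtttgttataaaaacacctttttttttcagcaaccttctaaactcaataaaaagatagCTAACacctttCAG

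Among the 4056 member introns of at least 31 nt, CTAAC was the chosen motif in 41.5%, CTAAT in 25.5%, CTGAC in 5.79% and CTGAT in 2.59%, and 24.6% held none of them. The first 6 bases were GTAAGT in 25.6% and GTATGT in 18.7%. Sce3 intron 1 opens with GC, and neither printed sce3 intron holds a listed motif. A match or its absence is a description of these letters only.

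The sample had 16126 alignments with a median aligned length of 157 nt and a longest of 356 nt. Members received 657 reads, 4.07% of all alignments. At least 1 read fell on 327 members, of which 253 had exactly 1, and 1005 members had none. Of the assigned reads, 223 lay wholly inside 1 intron, nearly all of them around snoRNAs or in 1 unannotated stretch, and say nothing of splicing. A read was taken as informative for an intron if its alignment reached past both splice sites by 1 nt or more, as spliced if a gap matched the intron, and as unspliced if the intron was aligned through. Each such pairing of a read and an intron is called an observation. There were 332 observations over 260 introns in 178 genes, and 214 of these introns were seen in 1 read only. At this depth the values below describe pools of introns and single molecules, not rates of single introns.

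Most introns upstream of a read's 3' end were already gone. Of the 332 observations 239 were spliced, 72.0% (66.9 to 76.5). By position, 145 of 217 observations of first introns were spliced, 66.8% (60.3 to 72.7, 170 genes). Of internal introns 59 of 75 were spliced, 78.7% (68.1 to 86.4, 48 genes). Of last introns 35 of 40 were spliced, 87.5% (73.9 to 94.5, 33 genes). First introns thus lay 20.7 percentage points below last introns in the pool (first minus last -20.7, interval -30.3 to -5.83). The interval treats observations as independent, although 33 of the 40 last introns were read in a molecule that also covered the first intron. Within those 33 molecules the first and last intron were both spliced in 30 and both unspliced in 2, and only the last was spliced in 1, of ade2. The pooled gap thus went with molecules that covered the first intron but not the last.

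The order by position was also not seen among molecules of short genomic span, the distance in the genome from the read's first to its last aligned base, introns included. An unspliced molecule is longer than a spliced one with the same ends, and only 74.1% of the spliced observations came from molecules whose unspliced form would be no longer than the longest read. That share was 80% for first, 76.3% for internal and 45.7% for last introns. With spans of at most 300 nt, where both forms can be read, 55 of 111 first (49.5%, 40.4 to 58.7), 8 of 17 internal (47.1%, 26.2 to 69.0) and 4 of 9 last introns (44.4%, 18.9 to 73.3) were spliced. First minus last was then 5.11 points (-25.2 to 32.3), so at short span no difference by position was detectable. Over all introns the share was 48.9% (40.7 to 57.2, 67 of 137 observations) at these spans.

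Longer introns were spliced more often in the pool, with intervals of the shortest and longest classes that do not overlap. Of introns up to 50 nt 107 of 157 observations were spliced, 68.2% (60.5 to 74.9), and of those from 51 to 75 nt 71 of 103, 68.9% (59.5 to 77.1). The share was 78.6% (64.1 to 88.3, 33 of 42) from 76 to 150 nt and 93.3% (78.7 to 98.2, 28 of 30) above 150 nt. Of the 30 observations above 150 nt, 8 were of cpc2 intron 1, all spliced. The 2 unspliced ones were gnd1 intron 2, of 165 nt, and fkh1 intron 1, of 182 nt. With genes weighted equally this class stood at 90.5%, and a share without cpc2 was not computed. Length moved with position: informative first, internal and last introns had median lengths of 49, 56 and 78 nt. At spans of at most 300 nt the first 3 length classes stood at 50%, 44.2% and 57.1%, and introns over 150 nt had no observation. Examples of long introns are prp19 intron 2, of 485 nt, spliced in 2 of 2 reads (prp19 encodes a ubiquitin ligase of the splicing machinery), and ade2 intron 2, of 383 nt, spliced in 1 of 1 (ade2 encodes adenylosuccinate synthetase).

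The length of a neighbouring internal exon went with smaller differences, and all 3 intervals overlapped. Beside internal exons of at most 100 nt 177 of 237 observations were spliced, 74.7% (68.8 to 79.8). Beside exons of over 100 and up to 200 nt the count was 75 of 110, 68.2% (59.0 to 76.1), and beside exons over 200 nt 46 of 60, 76.7% (64.6 to 85.6). An intron between internal exons was counted with both. The number of introns in the gene went with little difference: 89 of 122 observations were spliced in genes with 2 introns (73.0%), just inside the rule, 85 of 120 in genes with 3 (70.8%) and 65 of 90 in genes with 4 or more (72.2%).

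**Figure D1:**
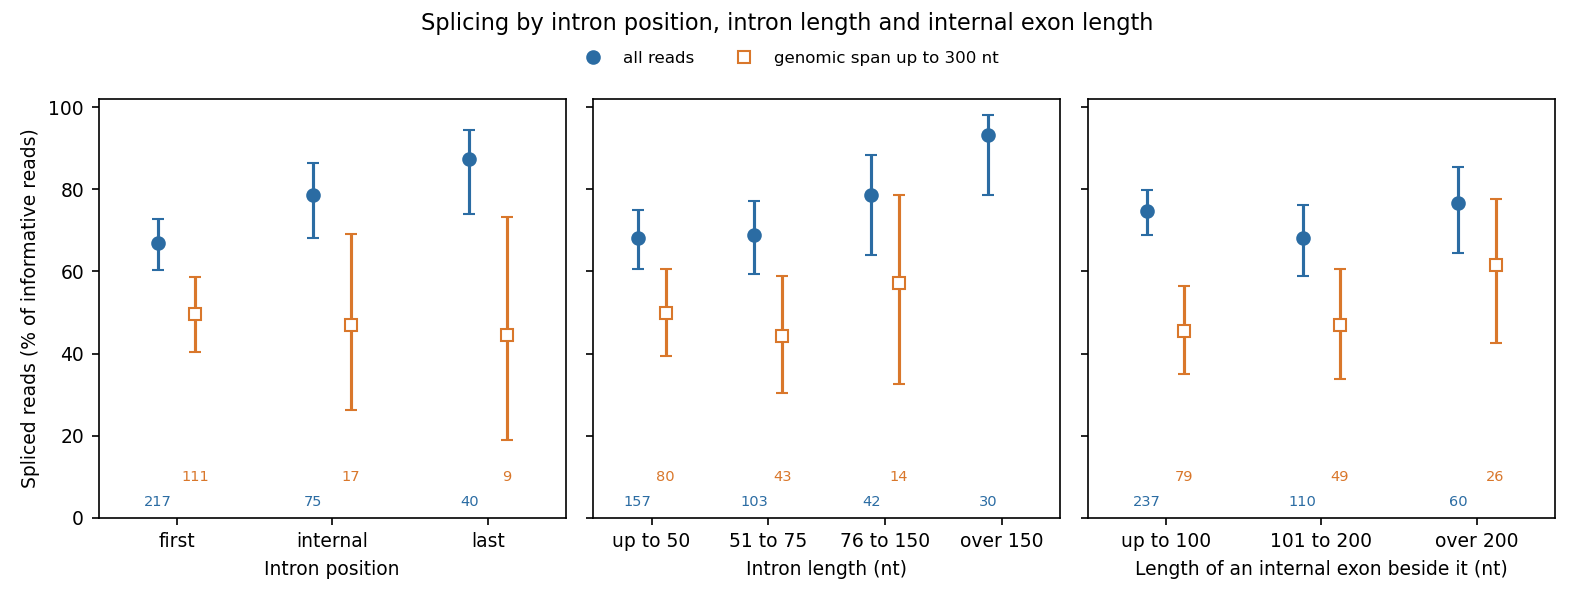
Percent of informative reads that were spliced (vertical axis) by intron position, intron length and length of a neighbouring internal exon, for all reads (filled circles) and for reads with a genomic span up to 300 nt (open squares); bars are 95% Wilson intervals and the numbers at the foot are observations. In all reads the share goes from 66.8% in first to 87.5% in last introns, while at short span the 3 positions lie between 44.4% and 49.5%.

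The distance of the read's 3' end past the 3' splice site, measured in aligned bases, did not order the members' introns steadily. With 3' ends 1 to 50 nt past the site 50 of 67 observations were spliced (74.6%, 63.1 to 83.5). At 51 to 150 nt the count was 113 of 171 (66.1%, 58.7 to 72.8), and beyond 150 nt 76 of 94 (80.9%, 71.7 to 87.5). The middle class is the lowest and the last the highest, and the intervals of neighbouring classes overlap. An alternative chosen after seeing the data left out reads ending on the last base of an exon. The shares were then 74.2%, 71.7% and 80.2%, over 62, 145 and 91 observations, so the middle class was less low. At the shortest distances, 1 to 10 nt, there were 0 spliced and 5 unspliced reads, and the nearest end of a spliced read lay 12 nt past the site. A spliced read whose few bases past the junction were left unaligned would not be counted here, so the nearest distances are limited by the alignment.

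Single molecules that crossed several introns showed the states side by side. Of 228 molecules over at least 1 intron, 74 were fully unspliced, 32.5% (26.7 to 38.8), and they came from 66 genes. Of the 82 molecules over 2 or more introns, from 66 genes, 63 had lost every covered intron (76.8%, 66.6 to 84.6), 10 had lost none (12.2%, 6.76 to 21.01) and 9 had lost some (10.98%, 5.88 to 19.6). Molecules over 3 or more introns numbered 17, of which 15 were spliced throughout, 2 were mixed and 0 were fully unspliced. Span differed between these kinds: its median was 405 nt for fully spliced, 357 nt for mixed and 264.5 nt for unspliced molecules over 2 or more introns, while their aligned lengths were alike, with medians of 261, 269 and 264.5 nt. At spans of at most 300 nt 9 were spliced throughout, 10 unspliced and 1 mixed.

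**Figure D2:**
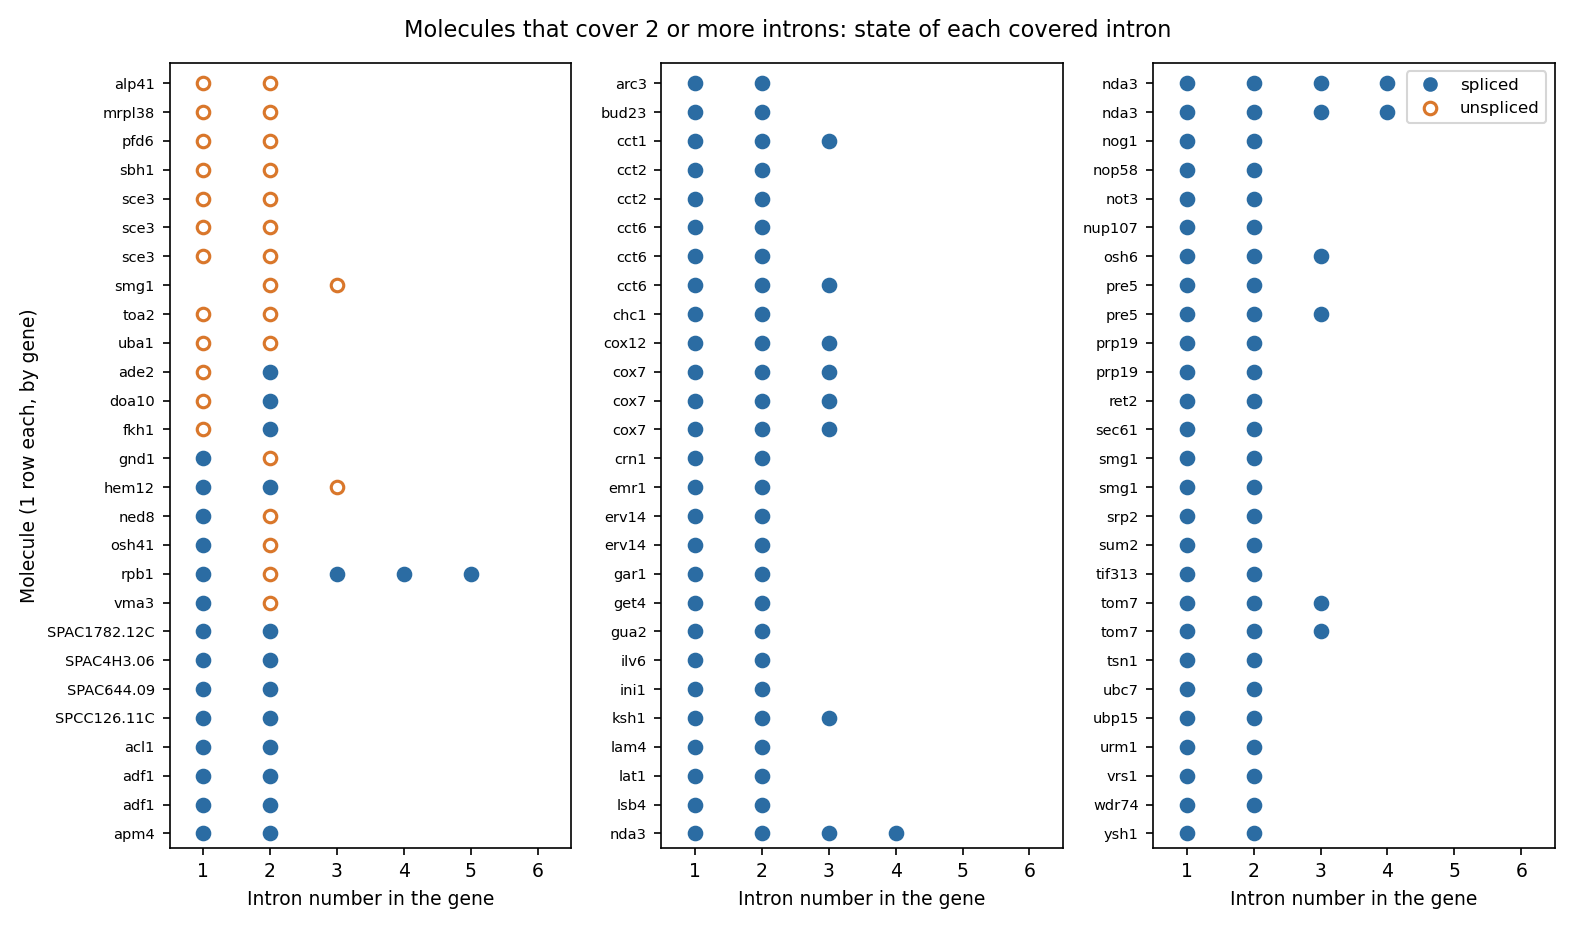
Molecules over 2 or more introns, 1 row each for all of the 82 but 1 spliced molecule that is not shown, labelled by gene, with the number of the intron along the horizontal axis; filled circles are spliced and open circles unspliced introns. The 10 fully unspliced molecules stand first, the 9 mixed ones next and the spliced ones after them.

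The molecules spliced throughout include genes of several basic functions. Nda3, which encodes beta tubulin (chrII:3964092-3965973), had 3 molecules with all of introns 1 to 4 removed and 1 in which intron 1 was present, 12 of 13 observations spliced. Its intron 1 of 36 nt, printed above, was thus spliced in 3 of 4 reads. Cox7, for a subunit of cytochrome c oxidase, had 3 molecules with all 3 introns removed, 9 of 9. Tom7, for a subunit of the import channel of the outer mitochondrial membrane, was spliced in 6 of 6 observations, and cox12, another cytochrome c oxidase subunit, in 3 of 3. The chaperonin genes cct1, cct2 and cct6, whose products fold actin and tubulin, stood at 3 of 3, 5 of 5 and 7 of 8, and pre5, a proteasome core subunit, at 5 of 5. Osh6 (an oxysterol-binding protein) and ksh1 gave 1 molecule each, with 3 introns removed. Cpc2 had its 197 nt intron 1 removed in 8 of 8 reads.

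The 10 molecules over 2 or more introns with none removed came from 8 genes. Sce3, annotated as a translation initiation factor (chrII:1775169-1776969), gave 3 of them and was unspliced in 6 of 6 observations. The others, 1 each, were alp41 (a GTP-binding protein that acts in beta-tubulin folding), mrpl38 (a mitochondrial ribosomal protein), pfd6 (prefoldin), sbh1 (part of the protein channel of the endoplasmic reticulum), smg1 (a core protein of the spliceosomal snRNPs), toa2 (a TFIIA subunit) and uba1 (the ubiquitin-activating enzyme). These molecules spanned 194 to 289 nt. The unspliced smg1 molecule covered introns 2 and 3, while 2 other smg1 molecules had lost introns 1 and 2, so both states were present in this gene.

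Unspliced molecules were seen more than once in 6 genes, or in 5 where identical alignments count once. Rar1, the methionyl-tRNA ligase (chrII:1406917-1409883), had intron 1 unspliced in 3 of 3 reads, although this intron has the same first 6 bases and branch motif as intron 1 of cpc2, which was spliced in 8 of 8. Nog1, a GTP-binding protein, had 2 fully unspliced reads with identical alignments, which may be copies of 1 molecule, and 1 molecule spliced throughout. Vps1302, a lipid transfer protein, had 2 unspliced molecules and 1 spliced. Spo14, a nucleotide exchange factor, and SPAC1F7.11C, a transcription factor, had 2 unspliced molecules each and none spliced. Among the 31 genes with at least 2 molecules over introns, 11 had spliced molecules only, 4 had unspliced ones only, and 16 had some of each or mixed ones. The 4 are rar1, sce3, spo14 and SPAC1F7.11C, and each rests on 2 or 3 molecules.

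**Figure D3:**
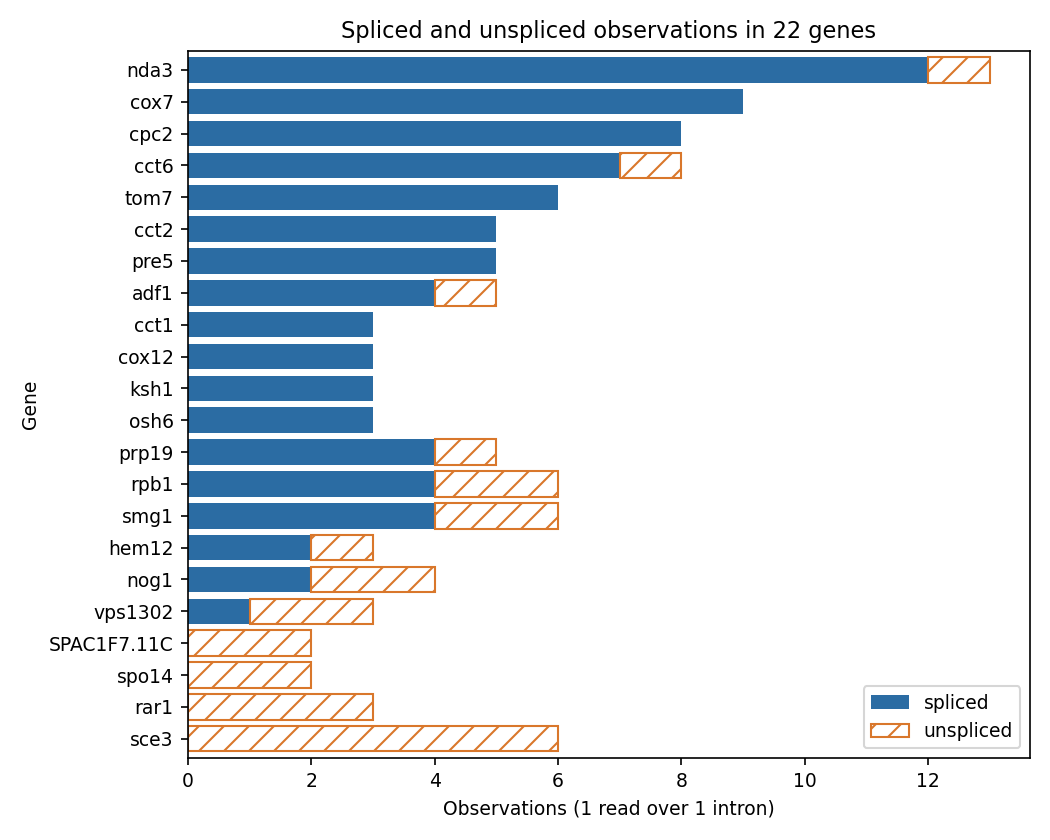
Number of spliced (filled) and unspliced (hatched) observations in the genes named by rule (all of the 23 but 1, which is not shown): at least 5 observations, a molecule over at least 3 introns, or at least 2 fully unspliced molecules. Nda3 has the most observations, 12 spliced and 1 unspliced, and sce3 and rar1 have none spliced.

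Neighbouring introns of a molecule were mostly in the same state. Of 104 neighbouring pairs 84 were spliced at both introns and 10 at neither, so 94 (90.4%, 83.2 to 94.7) shared a state. The interval treats pairs as independent, although 1 molecule can give several, such as the 3 nda3 molecules over 4 introns. Most introns were spliced, so many pairs would share a state without any link between them, and that share was not computed. In 6 pairs only the upstream and in 4 only the downstream intron was gone. Later introns seen in molecules over 2 or more introns were spliced in 88 of 105 cases (83.8%, 75.6 to 89.6). First introns were spliced in 69 of 81 such molecules (85.2%, 75.9 to 91.3), against 76 of 136 molecules that reached past the first intron only (55.9%, 47.5 to 64.0). A molecule without its first intron reaches a second one with fewer aligned bases, and reads were at most 356 nt long. At spans of at most 300 nt first introns were spliced in 55 of 111 observations. Molecules over 2 or more introns were there 9 spliced throughout, 10 unspliced and 1 mixed. The contrast itself was not computed at these spans.

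Pairs spliced upstream only lay at the shortest internal exons. All 6 pairs with only the upstream intron removed flanked exons of at most 26 nt: gnd1 (5 nt), vma3 (6 nt), osh41 (13 nt), ned8 (18 nt), hem12 (25 nt) and rpb1 (26 nt). Of the 12 pairs at exons up to 30 nt, a limit set after the values were seen, 2 were spliced at both introns, 4 at neither and 6 upstream only. Of the 73 pairs at exons of 31 to 100 nt 64 were spliced at both, 5 at neither, 0 upstream only and 4 downstream only, and of the 19 at longer exons, up to 200 nt, 18 were spliced at both and 1 at neither. Both spliced pairs at short exons belong to 1 molecule of cox12, at exons of 16 and 26 nt. Only 119 of the 2734 internal exons of members (4.35%) are that short.

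These short exons are printed below in capitals, with 12 intron bases on either side in lower case, for the 6 pairs and for sce3, whose 3 molecules kept both introns. All lie within the coding sequence.
gnd1 exon between introns 1 and 2, chrII:230446-230450, plus strand: tttcccctttagTGCCGgtatgtgaaaaa
vma3 exon between introns 1 and 2, chrI:4954696-4954701, plus strand: ctaacgttttagCCCTGTgtaagcatcaac
sce3 exon between introns 1 and 2, chrII:1776846-1776856, minus strand: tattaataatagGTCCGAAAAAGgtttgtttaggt
osh41 exon between introns 1 and 2, chrII:344123-344135, minus strand: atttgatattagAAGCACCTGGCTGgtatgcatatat
ned8 exon between introns 1 and 2, chrII:2320173-2320190, minus strand: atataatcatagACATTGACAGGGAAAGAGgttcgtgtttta
hem12 exon between introns 2 and 3, chrIII:1166743-1166767, plus strand: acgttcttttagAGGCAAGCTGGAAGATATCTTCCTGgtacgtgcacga
rpb1 exon between introns 1 and 2, chrII:1591204-1591229, plus strand: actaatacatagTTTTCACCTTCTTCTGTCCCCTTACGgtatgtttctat

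Alignment limits what can be seen at such exons. In the 94 reads with 2 or more gaps, the shortest block between gaps was 16 nt, the cox12 exon, and 33 internal exons of members are shorter than that. Whether molecules that had lost both introns around a shorter exon were aligned with both gaps was not tested. A read of qcr8 had a gap of 233 nt over the short exon between its introns 1 and 2, with ends off the annotated sites. It counted as neither spliced nor unspliced and is not among the pairs above. Introns 1 and 2 of qcr8 are 189 and 45 nt long, and the gap opens with CT and closes with AC. Whether the molecule had lost both introns was not tested.

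The genes with unlike pairs have varied roles. Only the upstream intron of the pair was removed in single molecules of gnd1 (phosphogluconate dehydrogenase), vma3 (the proteolipid of the vacuolar ATPase), osh41 (an oxysterol-binding protein) and ned8 (a ubiquitin-like modifier). Hem12, a haem synthesis enzyme, had introns 1 and 2 removed and intron 3 present. Only the downstream intron was removed in ade2, doa10 (a ubiquitin ligase) and fkh1 (a prolyl isomerase), at exons of 97, 39 and 38 nt. One rpb1 molecule, from the gene of the largest RNA polymerase II subunit, covered 5 introns with 356 aligned nt and a span of 567 nt. It had lost introns 1, 3, 4 and 5 and kept intron 2, the 40 nt intron printed above with GTATGT and CTAAC, so it counts in both directions.

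Many read 3' ends lay exactly on the last base of an exon, directly before a 5' splice site. Whether polymerase stood at these ends was not tested. Of the 436 member reads that did not lie inside 1 intron, 61 ended there (13.99%, 11.05 to 17.6), in 56 genes, while the 10 bases on either side held 47 ends in all, 2.35 per base. A further 65 reads (14.9%) ended inside an intron, 290 (66.5%) elsewhere in an exon, 4 between the stop codon and the annotated mRNA end, and 16 past that end. The ends on a last exon base stood before first introns in 32 reads, internal introns in 15 and last introns in 14. The earlier movies (sequencing runs) held 29 and the later ones 32, and 60 of the 61 had distinct alignments. The files hold aligned bases only, so a spliced read whose few bases past the junction were left unaligned cannot be told apart from a molecule that ended at the exon.

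The same position held 31 of 374 reads (8.29%, 5.90 to 11.5) in single-intron genes outside ribosomal proteins and 7 of 421 (1.66%, 0.808 to 3.39) in ribosomal protein genes with introns, where the neighbouring bases held 0.9 and 0.8 ends per base. Members were thus above ribosomal protein genes with intervals that do not overlap, and their interval overlaps that of single-intron genes. Members have more 5' splice sites per gene than single-intron genes, and no share per site was computed. In ribosomal protein genes 27 reads began 12 nt before an intron, against 0 in members. A molecule from such a start to the last exon base would be 12 nt long. Whether reads so short could be aligned was not tested.

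**Figure D4:**
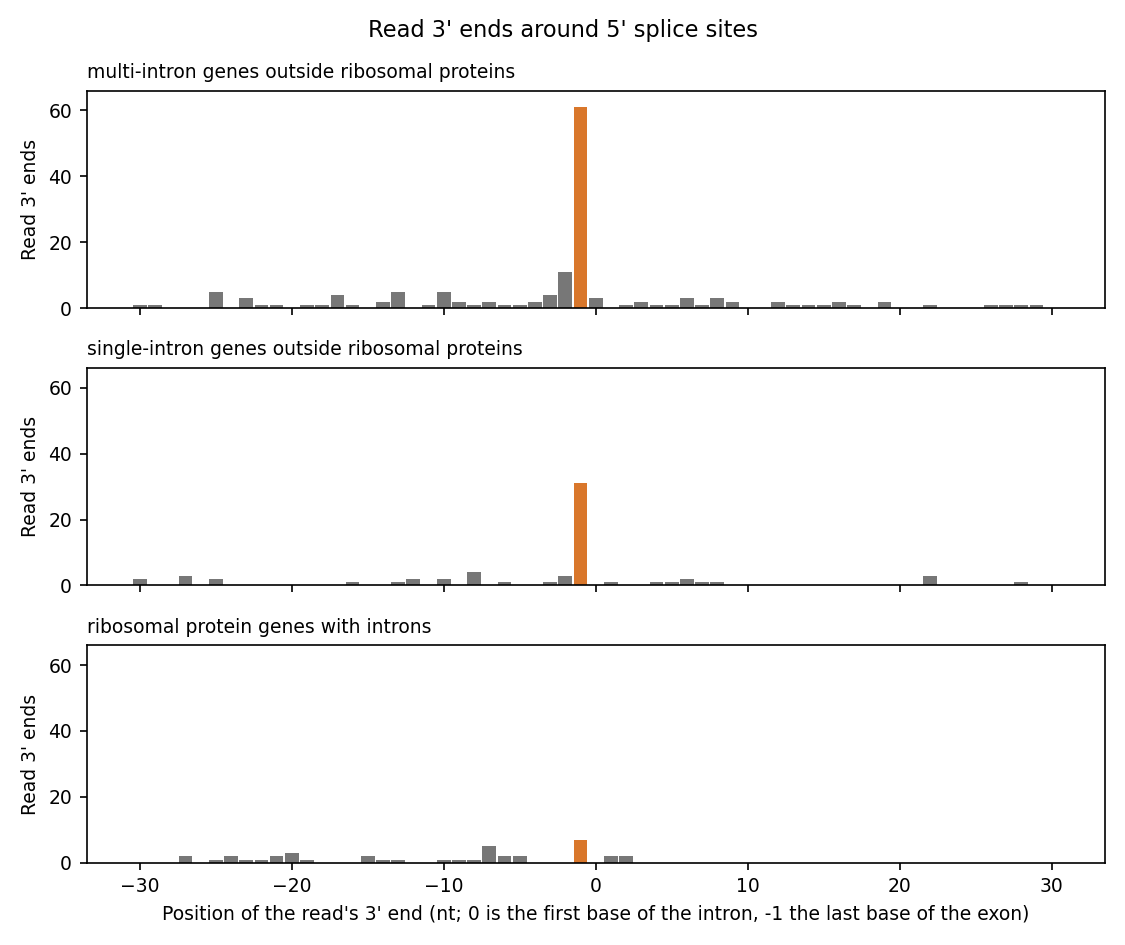
Number of read 3' ends (vertical axis) by distance in nt from the start of the nearest intron (horizontal axis, 0 is the first intron base and -1 the last exon base), in multi-intron genes, single-intron genes and ribosomal protein genes. The bar at -1 holds 61, 31 and 7 reads and is the highest of each panel.

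Such reads came more than once from 5 genes, with 2 each: SPAC30C2.08, nog1, rar1, sce3 and vma8 (a vacuolar ATPase subunit). Those of nog1 have identical alignments, so 4 genes repeat when such reads count once. Their exon ends are printed with 15 exon bases in lower case and the first 6 intron bases in capitals, all between coding exons.
SPAC30C2.08 intron 1, chrI:4645708-4645728, plus strand: aattagtggaacagaGTATGT
nog1 intron 2, chrII:1238999-1239019, minus strand: cgatcagggtttaagGTATGT
rar1 intron 2, chrII:1409615-1409635, minus strand: aaatgcgatagtcagGTAAGT
sce3 intron 3, chrII:1776708-1776728, minus strand: atttgccagctttgcGTAAGT
vma8 intron 2, chrIII:2285257-2285277, plus strand: gtaaacattgagcaaGTAAGT

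Introns upstream of these ends were often still present. Of the 29 reads ending before a second or later intron, the preceding intron was spliced in 13 and unspliced in 16. Over all upstream introns, molecules ending on a last exon base had 16 of 34 spliced (47.1%, 31.5 to 63.3, 25 genes). Molecules ending inside an intron had 10 of 34 (29.4%, 16.8 to 46.2, 29 genes), those ending elsewhere in an exon before the stop codon 198 of 247 (80.2%, 74.7 to 84.7, 137 genes), and those ending past the stop codon 15 of 17 (88.2%, 65.7 to 96.7, 5 genes). The intervals of the first pair of classes lie wholly below that of molecules ending elsewhere in an exon.

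Span moved with this result too: the median spans of the 4 classes, in the order intron, last exon base, elsewhere and past the stop codon, were 293, 277, 349 and 434 nt. At spans of at most 300 nt the shares were 5 of 18 (27.8%, 12.5 to 50.9), 8 of 24 (33.3%, 17.97 to 53.3) and 54 of 93 (58.1%, 47.9 to 67.6) for the first 3 classes, and 0 of 2 past the stop codon. The order of the first 3 was the same there, but their intervals overlap.

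**Figure D5:**
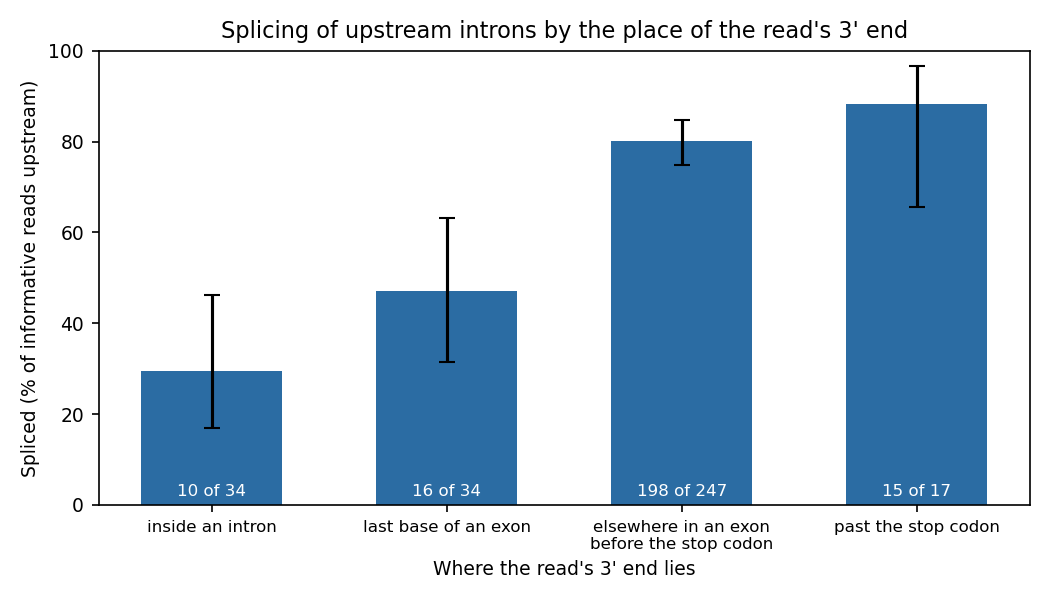
Percent of informative upstream introns that were spliced (vertical axis, from 0) by where the read's 3' end lies, over member genes; bars carry 95% Wilson intervals and their counts. Molecules ending inside an intron (29.4%) or on a last exon base (47.1%) are lower than those ending elsewhere in an exon (80.2%).

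Set against other intron-containing genes of the sample, members were below ribosomal protein genes, and over all reads their first introns were below the introns of single-intron genes. Members stood at 72.0% (239 of 332, 178 genes) and single-intron genes at 77.7% (70.1 to 83.8, 108 of 139, 98 genes), which lie just outside the rule, a difference of -5.71 points (-13.7 to 3.16). With the members' first introns alone, a comparison added after the values were seen, the difference was larger, 66.8% in members and 77.7% in single-intron genes, or -10.9 points (-19.8 to -1.23). It was -7.86 points (-23.1 to 8.25) at spans of at most 300 nt. Intron lengths differed too: introns over 150 nt gave 16 of the 217 first-intron observations in members, 15 of them spliced, and 37 of the 139 in single-intron genes, all spliced, and the part of length in the difference was not tested. Ribosomal protein genes stood at 94.4% (91.4 to 96.4, 305 of 323, 56 genes), and the members' difference from them was -22.4 points (-27.9 to -16.9). At spans of at most 300 nt this difference was -35.0 points (-45.2 to -22.9).

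Among molecules ending elsewhere in an exon before the stop codon, the share was 80.2% in members, 77.4% (106 of 137) in single-intron genes and 93.6% (206 of 220) in ribosomal protein genes. Informative molecules that end inside a later intron or directly before one cannot occur in single-intron genes. Without reads ending on a last exon base the difference for first introns was -8.02 points (-17.2 to 1.75). Leaving out reads ending inside an intron was not tested. Past the stop codon the members had 17 observations and ribosomal protein genes 98, so the classes also differ in how far along the gene their 3' ends lie. The labels call the material nascent RNA, and how much finished mRNA it holds in each class was not tested.

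Functional groups of members each rest on few genes, and observations of neighbouring introns come from the same molecules. In mitochondrial respiration and import, 20 of 20 observations were spliced (100%, 83.9 to 100), 9 of them from cox7 and 6 from tom7, with cox12, atp5 and tim8 giving the rest. Of 25 listed members 5 had observations. The list is not complete: atp19 (F0-ATPase subunit K) and mic60, which it leaves out, were spliced in 0 of 1 each. Other genes left out were not counted. In the actin and tubulin cytoskeleton 20 of 22 were spliced (90.9%, 72.2 to 97.5), mainly in nda3 and in adf1, the cofilin gene, at 4 of 5. In the proteasome group 6 of 6 were spliced, in pre5 and rpn3.

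Vesicle transport and secretion stood at 14 of 23 (60.9%, 40.8 to 77.8), with 8 of 16 molecules fully unspliced. Erv14, a cargo receptor of secretory vesicles, was spliced in 4 of 4, apm4, ret2 and sec61 in 2 of 2 each and vti1 in 1 of 1. Chc1, the clathrin heavy chain, was spliced in 2 of 3 and vps1302 in 1 of 3, while sbh1 was in 0 of 2 and apl1, apm3, sec6102 and vps15 in 0 of 1 each. Pre-mRNA splicing factors stood at 12 of 18 (66.7%, 43.7 to 83.7), with prp19 and smg1 at 4 of 5 and 4 of 6. Ubiquitin and related conjugation stood at 6 of 10, chromatin and transcription at 5 of 8 including 4 of 6 in rpb1, small GTPases at 6 of 8, the vacuolar ATPase at 2 of 5 and cell cycle genes at 2 of 4. In translation factors 8 of 9 were spliced, all 8 in cpc2. That list leaves out sce3, at 0 of 6, and tif313, at 2 of 2, which are both annotated as translation initiation factors. The remaining lists are not complete either. Chromatin and transcription leaves out toa2 and SPAC1F7.11C, both at 0 of 2, and ubiquitin conjugation leaves out doa10, at 1 of 2. Further genes left out of these lists, spliced or unspliced, were not counted. The 19 members of the meiosis list had 0 reads. The observations of listed mitochondrial genes came from 8 molecules, of which 0 were fully unspliced, and the cytoskeletal ones from 9, of which 2 were. The intervals of the lists treat observations as independent and are too narrow for that reason.

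The gaps in member reads nearly always followed the annotation. Of 243 gaps 4 matched no annotated intron, and 0 joined annotated splice sites on either side of a skipped exon. Among the 4, a gap of 233 nt in qcr8 ran from inside intron 1 to inside intron 2, over the exon between them. Gaps in ypt1, a secretory GTPase, of 56 nt, and in hot15, of 136 nt, used the annotated 5' splice site with another 3' site. Of the molecules over introns, 145 of 228 (63.6%) began within 10 nt of the annotated mRNA start.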

How the data were processed

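The deposited file for S. pombe holds genome alignments of consensus reads, 1 line each, with aligned blocks. Its only measured field beside positions is the alignment score as deposited by the authors, a constant 40 that entered no result. Cutadapt 1.8 and the build sacCer3 are named per the submitters' processing notes. SacCer3 is a budding yeast build, so the alignments were compared with RefSeq ASM294v3. In this build 0 reads passed a chromosome end, and 326 annotated introns of protein-coding genes were matched exactly by a gap. All 326 have GT and AG ends, but these ends come from the annotated introns and are no separate check of the build. The aligner was not given in the sources used here.

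Genes, introns and snoRNAs came from the ASM294v3 annotation. For the 7 members with more than 1 transcript, the one with the most exons was used. Reads on the gene's strand were assigned by overlap, leaving out 9 that lay wholly in an annotated intronic snoRNA. An intron counted as spliced where each end of a gap lay within 3 nt of its own, and 3 observations with another gap were left out. The shortest gap was 31 nt, so 8 shorter introns could not have been seen spliced, and these had 0 informative reads. The 454 alignments outside chromosomes I to III were left out. Each read was assumed to end where its RNA ended. Finished RNA was not told apart from nascent RNA, and PCR copies were not removed, since the adaptor's random bases were not used. PCR reads are not independent molecules, so intervals cover counting error only. Members had 478 distinct alignments.

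Genes were named by rule: at least 5 observations, at least 2 fully unspliced molecules, or a molecule over 3 or more introns. Printed introns had at least 4 informative reads, and 3 met this, apart from those said to be chosen later. Of the 23 genes named by the rule, 1 is not reported here. Members and functional lists were chosen with earlier results of these data known. Python 3.11.15, numpy 2.4.6, scipy 1.17.1 and matplotlib 3.10.9 were used, and the classification was tested on simulated data. Alternatives were an anchor of 10 nt, a gap tolerance of 0 nt, spans of at most 300 nt, distinct alignments, genes weighted equally, earlier or later movies, and leaving out the gene with the most observations.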

Additional observations from a re-analysis of the deposited data

How the results depend on the processing

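Restricting reads to a genomic span of at most 300 nt moved most values. The share spliced was then 48.9% over all introns, 49.5% in first, 47.1% in internal and 44.4% in last introns, and first minus last turned to 5.11 points. By intron length it was 50% up to 50 nt, 44.2% to 75 nt and 57.1% to 150 nt, with no value for longer introns. By internal exon it was 45.6% up to 100 nt, 46.9% up to 200 nt and 61.5% beyond. Fully unspliced molecules made up 50.4% of those over 1 or more introns and 50% of those over 2 or more, and mixed ones 5%. With 3' ends 51 to 150 nt and over 150 nt past the 3' splice site, 44.4% and 38.9% were spliced. Members minus ribosomal protein genes was -35.0 points. The cause was not tested. With genes weighted equally the share over all introns was 66.5% and the difference from ribosomal protein genes -28.2 points. The later movies gave 95.2% for last introns and 100% for introns over 150 nt, and the earlier ones 61.1% beside exons over 200 nt. In all, 208 of 230 values stayed within the interval of the reported one, including all 21 results with identical alignments counted once, with an anchor of 10 nt, with exact gaps, with 3' ends at or before the stop codon, and without nda3, the gene with the most observations. The same held for 2 alternatives chosen after seeing the data, without reads ending on a last exon base and without sce3. Part of this tally was fixed in advance, so it is no measure of stability. Counting identical alignments once left 330 of 332 observations. Without nda3, and also without sce3, last introns kept all 40 observations and introns over 150 nt all 30, so these values could not change. First introns of members minus single-intron genes, a comparison chosen after seeing the data, ran from -12.3 to -6.62 points, and its interval included 0 within the earlier and the later movies, at spans of at most 300 nt and without reads ending on a last exon base. No paired analysis was possible because there was 1 S. pombe sample and no replicate to pair, while introns of 1 molecule are compared with each other above. With 332 observations in 178 genes, differences of a few points were not detectable, and reads of at most 356 nt limit what long unspliced molecules can show.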

Other observations

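Members also host RNAs inside their introns. Of the 223 reads that lay wholly inside 1 intron, 112 fell in intron 2 of cpc2 and 77 in intron 4 of spt20, which lies after the stop codon. Most of the cpc2 reads shared their ends, with 96 within 2 nt of the commonest 5' end and 110 within 2 nt of the commonest 3' end, which lie 1 nt outside the annotated ends of the snoRNA snoU24b. In spt20 75 and 73 of the 77 reads did so, around snoU24, where the commonest 3' end lay 21 nt from the annotated one. A snoRNA guides chemical modification of ribosomal RNA and is commonly trimmed from a removed intron.

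Another such set has no snoRNA in the annotation used. Intron 1 of SPAC8F11.08C, 371 nt long and before the start codon, held 30 reads, of which 26 and 23 shared their 5' and 3' ends within 2 nt, on a stretch of 138 nt (chrI:2867523-2867660, minus strand, ASM294v3). They comprised 18 distinct alignments. What this RNA is was not tested.

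Splice-site letters went with small differences among the observations. Introns with CTAAC were spliced in 109 of 144 observations (75.7%, 68.1 to 82.0), those with CTAAT in 50 of 71 (70.4%) and those with none of the 4 motifs in 59 of 89 (66.3%, 55.98 to 75.3). By 5' splice site, GTATGT gave 53 of 71 (74.6%) and GTAAGT 52 of 75 (69.3%), and by last 3 bases TAG gave 154 of 212 (72.6%), CAG 50 of 69 (72.5%) and AAG 35 of 51 (68.6%). All these intervals overlap.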
